A study of Mus musculus with 6 samples.

Results

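The 39 genes described here are a list of endothelial and blood-brain barrier genes, listed by name with earlier results of these data known, and measured in mouse cortex after whisker stimulation. The list comprises 8 genes of junctions and adhesion, 8 transporters, 6 transcription factors, 10 surface and secreted glycoproteins and 7 genes of signalling and other roles. All 39 were found among the 14824 genes of the deposited RNA-seq table, and all 39 passed the filter on low counts that left 13747 genes for testing. The tissue was the primary somatosensory (S1) cortex of wild-type (WT) C57B6 mice (the strain as labelled) at postnatal day 21. Both groups shared genotype, strain and age. The whisker stimulation (WS) group had its whiskers brushed by hand each day and was collected 90 min after the last session, with 3 libraries, and the non-stimulated (NS) group received no treatment, also with 3 libraries. In the study's imaging the control was the hemisphere of the same mouse that received no stimulation, but the description of the RNA-seq does not state which NS and WS samples shared an animal. The study counts the libraries of a group as separate mice, while the labels give only a number for each. The counts per library summed to between 15660395 and 17276168 over all listed genes. The libraries numbered 2 stood apart in the β-globin gene Hbb-b1, which read 96.4 CPM in NS replicate 2 and 106.6 CPM in WS replicate 2, but 0.189 to 4.67 CPM in the other 4 libraries. Hbb-bs, a β-globin gene of another haplotype among mouse strains and a near copy, was lowest in the same libraries, at 95.6 and 111.8 CPM, against 173.2 to 262.9 CPM elsewhere. All 6 libraries carry the same strain label. In RNA from whole cortex, fewer cells of a type and less RNA per cell cannot be told apart.

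Brain endothelial cells form a barrier in which tight junctions seal the gaps between neighbouring cells and transporters choose which solutes cross. Transcription factors of the ETS and SOX families set the endothelial program in all vessels, while Wnt signals from neural cells, acting through β-catenin with LEF and TCF factors, induce the barrier in vessels of the brain. Neural activity and sensory input are known to act on vessel growth in the postnatal cortex, and the comparison of WS with NS asks whether the transcripts of these cells differed with stimulation.

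The defining endothelial markers were present in every library. The lowest count of any member was 31, for Icam2 in NS replicate 3, and the highest was 1978, for Cd34 in NS replicate 3. Levels of different genes were compared as CPM (counts scaled to the TMM-normalised library size) per kilobase of exon. On this scale Itm2a stood highest in NS at 36.4 ± 2.48 (SD, n = 3), followed by Pltp at 35.5 ± 4.1, Ly6c1 at 31.1 ± 6.56, Slc7a5 at 25.2 ± 2.45 and Cldn5 at 24.1 ± 0.87. The NS ranges of neighbours in this order overlapped, while Itm2a and Pltp both lay wholly above Slc7a5 and Cldn5. Below Cldn5 came a gap to Ly6a at 17.8 ± 3.41 CPM per kilobase. The lowest levels in NS were those of Lef1, at 0.728 ± 0.115, and Ushbp1, at 0.477 ± 0.0156 CPM per kilobase, and those ranges did not meet. Pecam1 was 22nd of the members by level in NS, at 2.82 ± 0.238 CPM per kilobase, and 18th in WS, at 5.17 ± 1.56.

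The study's threshold was an adjusted p under 0.05 with a log2 fold change beyond 1. No member passed it here in edgeR's quasi-likelihood test without a block for the replicate number. In that test no member had an adjusted p under 0.05. Among all tested genes, 0.0291% passed the threshold upwards and 0.0364% had an adjusted p under 0.05 in either direction. The study, which tested with DESeq2 and PossionDis, reported far more genes as differing. At an unadjusted p under 0.05, 1 member, Pecam1, was higher in WS and 0 were lower, against 0.866% and 0.327% of all tested genes. DESeq2 gave Pecam1 alone of the members an adjusted p under 0.05, in a background of 0.0582%. With the replicate number as a block, Pecam1 again passed alone, in a background of 0.08%, and 4 members, Pecam1, Lef1, Sox17 and Vwf, were higher at an unadjusted p under 0.05, against 1.38% of all tested genes. With single libraries left out, that number in the fit without the block lay between 1 and 6. It was 6 without NS replicate 3, against 0.903% of all tested genes, 4 without WS replicate 1, against 2.27%, and 4 without WS replicate 3, against 2.3%. Pecam1 was in each of these sets.

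In edgeR's fit without the block, 35 of 39 members had a fold change above 0 in WS, against 53% of all tested genes. The members are not independent replicates, and a single NS library was also high across the list. Relative to the NS mean, 16, 13 and 30 members were higher in NS replicates 1, 2 and 3. In WS replicates 1, 2 and 3 the numbers were 24, 27 and 30. The median log2 fold change was 0.10 for the members and 0.01 for all tested genes. Small differences made up most of the list, with 26 members within 0.2 of 0 on the log2 scale. In the fit without the block, all members but Pecam1 had a 95% interval that included 0 and an upper bound under 1, and the highest of those bounds was 0.93, for Icam2. The SE of a member's log2 fold change lay between 0.0872 and 0.241. With a correction for the GC content of each transcript, added after the data were seen, 33 of 39 members were above 0, against 50.4% of all tested genes, and the median stayed at 0.10. Without both libraries numbered 2, 30 of 39 members were above 0, against 51.9% of all tested genes, with a median of 0.12 and a log2 fold change of 0.80 for Pecam1. With single libraries left out, the smallest number of members above 0 was 29, when WS replicate 3 was left out, and the largest 37, when NS replicate 3 was left out.

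In 6 members each of the 3 WS libraries lay above each of the 3 NS libraries, and in 1 member each lay below. The shares of all tested genes with such separation were 3.11% above and 3.16% below. The members above were Pecam1, Ocln, Mfsd2a, Sox17, Cd93 and Ramp2, and the member below was Clec14a. A two-sided exact permutation test of 3 against 3 libraries cannot give a p under 0.10, which these 7 genes reached.

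**Figure D1:**
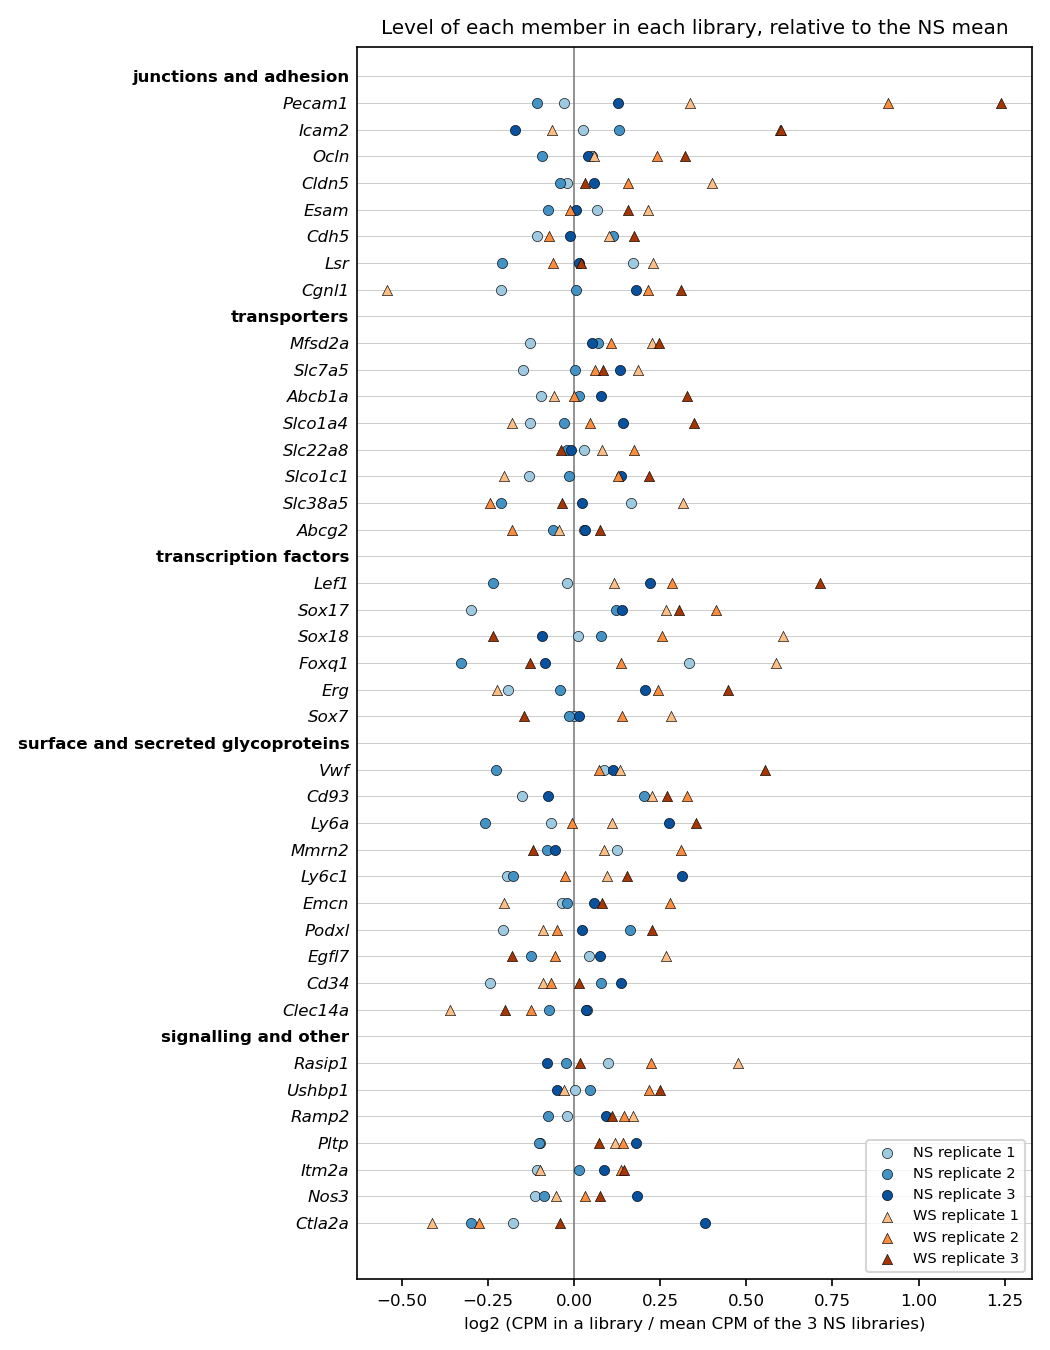
Level of each of the 39 members in each library (circles, NS; triangles, WS), as log2 of the CPM over the mean CPM of the 3 NS libraries, grouped by role. Pecam1 in the 3 WS libraries lies to the right of its NS values, whereas for most members the WS and NS points overlap.

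Among the junction and adhesion genes, 8 of 8 had a fold change above 0, with a median log2 value of 0.16. Pecam1 encodes CD31, an adhesion molecule concentrated at endothelial contacts and also carried by platelets and leukocytes, and lies at chromosome 11, 106654217 to 106750628 (GRCm38, minus strand). It was measured at 17.2, 16.3 and 19.2 CPM in the NS libraries and at 22.2, 33 and 41.5 CPM in the WS libraries, in the order of replicates 1, 2 and 3, which is kept below. The WS libraries were all higher than the NS libraries but spread widely among themselves. The mean was 17.6 ± 1.48 CPM in NS and 32.2 ± 9.69 CPM in WS (SD, n = 3), a fold of 1.83. Its log2 fold change was 0.87 (SE 0.185, 95% interval 0.47 to 1.28), with an adjusted p of 0.813 in edgeR, although its p-value was the 9th smallest of all tested genes. With the replicate block the log2 fold change was 0.84 and the adjusted p was 9.5e-04. DESeq2 gave an adjusted p of 0.00217. Without WS replicate 1, in which Pecam1 was lowest of the WS libraries, the log2 fold change was 1.08 and edgeR's adjusted p was 0.00542, past both thresholds. With the GC correction the adjusted p was 0.9999 without the block and 0.022 with it.

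The partners of Pecam1 at the same contacts had smaller values, and the difference between genes was not tested. Cdh5, or VE-cadherin, the adherens junction cadherin of endothelium, was measured at 14.2, 16.5 and 15.2 CPM in NS and at 16.4, 14.5 and 17.2 CPM in WS replicates 1, 2 and 3. These groups overlapped, with a log2 fold change of 0.07 (95% interval −0.17 to 0.31). Esam, an adhesion molecule of endothelial tight junctions, had a log2 fold change of 0.12 (SE 0.106). Icam2, an adhesion molecule of resting endothelium, had the second highest value of the members, 0.40 (95% interval −0.12 to 0.93). Its mean in NS was the lowest CPM of the list. It read 2.21, 2.37 and 1.93 CPM in NS and 2.07, 3.28 and 3.28 CPM in WS, so that WS replicate 1 lay within the NS range.

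Cldn5, the main claudin of the barrier's tight junctions, was measured at 33.7, 33.2 and 35.5 CPM in NS and at 45, 38 and 34.9 CPM in WS replicates 1, 2 and 3. WS replicate 1 stood apart, and WS replicate 3 fell inside the NS range. The log2 fold change of Cldn5 was 0.20 (SE 0.107), became 0.13 (SE 0.072) with the GC correction and was 0.10 without WS replicate 1. Ocln, which encodes occludin, a membrane protein of tight junctions, was measured at 10.1, 9.17 and 10.1 CPM in NS and at 10.2, 11.6 and 12.3 CPM in WS. Its groups did not overlap, but the gap between the nearest libraries was narrow. Its log2 fold change was 0.21 (SE 0.123, adjusted p = 0.9998 in edgeR). Lsr, a protein of the corners where 3 cells meet, had a log2 fold change of 0.07 (SE 0.137). Cgnl1, a plaque protein under the junctions, gave 0.04 (SE 0.191). Cgnl1 had its lowest value, 10.8 CPM, in WS replicate 1 and its highest, 19.6 CPM, in WS replicate 3.

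Of the 8 transporters, 7 had a fold change above 0, with a median log2 value of 0.08 and no value beyond 0.19. That median was 0.02 without WS replicate 3 and 0.13 without NS replicate 3. Mfsd2a, which carries lysophospholipids with omega-3 fatty acids into the brain and holds back transcytosis, was the highest of them. It was measured at 36.3, 41.6 and 41.2 CPM in NS and at 46.4, 42.7 and 47.1 CPM in WS. No WS library fell within the NS range. The means were 39.7 ± 2.95 and 45.4 ± 2.33 CPM (SD, n = 3), with a log2 fold change of 0.19 (95% interval −0.01 to 0.40, adjusted p = 0.9998 in edgeR). Slc7a5, the large neutral amino acid transporter LAT1, was the most abundant transporter per kilobase. It had 93.3 ± 9.07 CPM in NS and 100.7 ± 4.71 CPM in WS, and NS replicate 3 lay above WS replicates 2 and 3. The log2 fold change of Slc7a5 was 0.11 (SE 0.0872), the smallest SE of the list.

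The drug efflux pumps of the barrier showed no difference beyond the spread between libraries. Abcb1a, or P-glycoprotein, had 29.6 ± 1.77 CPM in NS and 31.7 ± 4.72 CPM in WS, a log2 fold change of 0.10 (95% interval −0.15 to 0.35). The near copy Abcb1b had between 32 and 41 counts in a library, and reads shared between the copies could be split by the counting. Abcg2, or BCRP, had 21.1 ± 0.753 CPM in NS and 20.4 ± 1.81 CPM in WS, and was the only transporter below 0, at −0.05 (95% interval −0.27 to 0.17). The organic anion transporters gave log2 fold changes of 0.09 (SE 0.127) for Slco1a4 and 0.07 (SE 0.0961) for Slc22a8. Slco1c1, a thyroid hormone transporter that astrocytes also make, gave 0.06 (SE 0.113). For the glutamine transporter Slc38a5 the value was 0.03 (SE 0.185). Slco1a4 and Slco1c1 each had their lowest value in WS replicate 1 and their highest in WS replicate 3, so the WS libraries enclosed the whole NS range.

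The transcription factors had the highest median of the roles, 0.24 on the log2 scale, and 6 of 6 had a fold change above 0. Lef1, the partner of β-catenin in Wnt signalling, was measured at 6.3, 5.43 and 7.45 CPM in NS and at 6.93, 7.79 and 10.5 CPM in WS. Each WS library was higher than the NS library of the same number, but WS replicate 1 lay under NS replicate 3. Its log2 fold change was 0.39 (95% interval −0.01 to 0.79), or 0.20 without WS replicate 3. Sox17, a SOX factor of arterial and barrier endothelium, was measured at 5.36, 7.18 and 7.27 CPM in NS and at 7.94, 8.78 and 8.15 CPM in WS. Its groups did not overlap, although NS replicate 1 stood below the other NS libraries. The log2 fold change of Sox17 was 0.33 (95% interval −0.01 to 0.66), or 0.20 without NS replicate 1.

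The related factor Sox18, which acts in vascular and lymphatic development, was measured at 12.2, 12.8 and 11.4 CPM in NS and at 18.5, 14.5 and 10.3 CPM in WS. Its highest and its lowest library were thus both of the WS group. The log2 fold change was 0.25 (SE 0.178), or 0.16 (SE 0.138) with the GC correction. Without WS replicate 1 the value was 0.03 for Sox18, 0.01 for Foxq1 and 0.01 for Sox7, and without WS replicate 3 it was 0.03 for Erg. Foxq1, a forkhead factor enriched in brain endothelium, had 5.8 ± 1.38 CPM in NS and 6.8 ± 1.74 CPM in WS, a log2 fold change of 0.23 (SE 0.217), and Sox7 gave 0.10 (SE 0.206). Erg, the ETS factor that maintains endothelial identity, gave 0.18 (SE 0.197). The 3 SOX factors had their highest values in different WS libraries, with Sox7 and Sox18 highest in replicate 1 and Sox17 in replicate 2. Without the block, all 6 factors had 95% intervals that included 0 and an adjusted p of 0.9998 in edgeR. With the replicate block, edgeR gave Lef1 0.39 (SE 0.155, unadjusted p = 0.0194) and Sox17 0.34 (SE 0.154, unadjusted p = 0.0386), with an adjusted p of 0.9999 for both.

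Of the surface and secreted glycoproteins, 8 of 10 had a fold change above 0, with a median log2 value of 0.07, which was 0.02 without both libraries numbered 2. Cd93, a C-type lectin receptor of migrating endothelium, was measured at 8.26, 10.5 and 8.7 CPM in NS and at 10.7, 11.5 and 11.1 CPM in WS. The groups did not overlap, and the WS libraries had an SD of only 0.393 CPM (n = 3). Its log2 fold change was 0.27 (95% interval −0.01 to 0.56). Mmrn2, a matrix protein that binds Cd93 and Clec14a, gave 0.10 (SE 0.194). Clec14a, a lectin of the same family as Cd93, had 4.92, 4.56 and 4.91 CPM in NS and 3.73, 4.39 and 4.17 CPM in WS. It was the single member with each WS library below each NS library, with a log2 fold change of −0.23 (95% interval −0.59 to 0.13, adjusted p = 0.9998 in edgeR).

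Vwf, the clotting factor stored in endothelial granules, had 15.8 ± 1.99 CPM in NS and 19.1 ± 3.62 CPM in WS, a log2 fold change of 0.27 (SE 0.144). Its highest library, WS replicate 3 at 23.2 CPM, stood well above the others, and without it the log2 fold change of Vwf was 0.10. Podxl, a sialomucin of the luminal surface, had 33 ± 4.19 CPM in NS and 33.8 ± 4.16 CPM in WS. Cd34, another sialomucin and the member with the highest counts, had 111.7 ± 15.2 and 108.1 ± 4.12 CPM. Both genes differed by less than the SD between libraries. The log2 fold changes were 0.04 (SE 0.121) for Podxl and −0.05 (SE 0.0987) for Cd34. Emcn, a mucin of capillaries and veins, gave 0.06 (SE 0.16), and Egfl7, a secreted protein of growing vessels, gave 0.02 (SE 0.123). The surface antigens Ly6a and Ly6c1 gave 0.16 (SE 0.142) and 0.08 (SE 0.13). Both lie on chromosome 15 within a family of similar genes, so their counts are uncertain.

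Of the remaining members, 6 of 7 had a fold change above 0, with a median log2 value of 0.11, which was 0.06 without NS replicate 1, 0.07 without NS replicate 2 and 0.04 without both libraries numbered 2. Ramp2, which joins the receptor for the vessel-protecting peptide adrenomedullin, was measured at 22.4, 21.6 and 24.3 CPM in NS and at 25.7, 25.2 and 24.6 CPM in WS. These groups did not overlap, with the nearest libraries close together. The log2 fold change of Ramp2 was 0.14 (SE 0.0922). Ramp2 overlaps Vps25 on the same strand in the annotation, and reads there may be shared. Rasip1, which is needed for the formation of vessel lumens, had 12.4, 11.4 and 10.9 CPM in NS and 16.1, 13.5 and 11.7 CPM in WS. WS replicate 3 lay within the NS range, and the log2 fold change was 0.25 (SE 0.133), or 0.16 (SE 0.103) with the GC correction. Without WS replicate 1 the value of Rasip1 was 0.12.

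Nos3, the endothelial nitric oxide synthase, had 12.5 ± 1.46 CPM in NS and 12.6 ± 0.563 CPM in WS, a log2 fold change of 0.02 (95% interval −0.24 to 0.28). It overlaps Atg9b on the opposite strand, and reads could be shared if counting ignored strand. Pltp, a phospholipid transfer protein, gave 0.11 (SE 0.0897, from 0.06 to 0.21 with single libraries left out), Ushbp1 gave 0.15 (SE 0.188) and the membrane protein Itm2a gave 0.06 (SE 0.0933). Ctla2a, a cathepsin inhibitor, had the lowest value of the list, −0.24 (95% interval −0.68 to 0.21). That value rested on NS replicate 3, at 7.7 CPM against 5.23 and 4.81 CPM in the other NS libraries, and without it the log2 fold change was 0.0006.

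**Figure D2:**
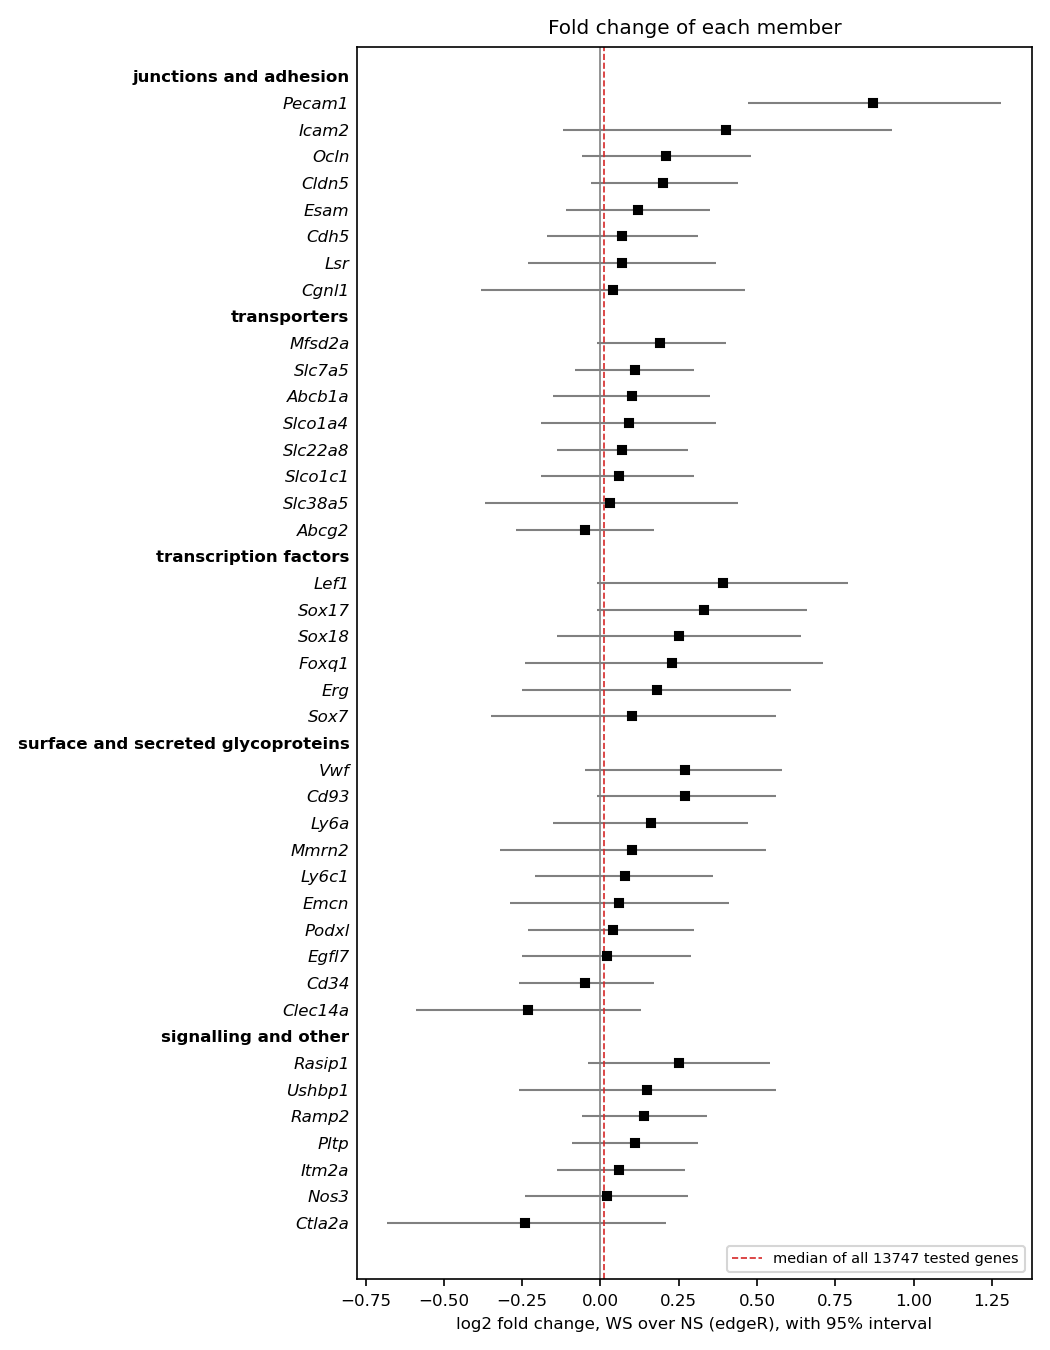
Log2 fold change of each member, WS over NS, from edgeR without the block (squares) with its 95% interval (bars), grouped by role and ordered by value. The dashed line is the median of all 13747 tested genes, 0.01, and the interval of Pecam1, 0.47 to 1.28, is the one that does not include 0.

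Summed over the members, the ranges of the WS and NS libraries overlapped, while each WS library lay above the NS library of the same number. The sum of their CPM was 923.8 in NS replicate 1, 972.5 in NS replicate 2 and 1073.8 in NS replicate 3. In the WS group it was 1032.4, 1052.8 and 1117.8, in the same order of replicates. NS replicate 3 thus lay above WS replicates 1 and 2. Relative to the NS mean, the median member was at 0.10, 0.14 and 0.14 on the log2 scale in the WS libraries, and at −0.03, −0.04 and 0.06 in the NS libraries. WS replicate 3 held the highest value of 17 members, among them Pecam1, Cdh5, Ocln, Mfsd2a, Slco1a4, Abcb1a, Lef1 and Vwf. WS replicate 1 held the highest of 11 others, among them Cldn5, Sox18, Foxq1, Egfl7, Slc7a5 and Rasip1. Over all tested genes, these libraries held the highest value of 24% and 26.4%. The lowest value was in NS replicate 1 for 11 members and in NS replicate 2 for 11, against 15.2% and 13.3% of all tested genes.

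Which of these WS libraries was high in a member moved with base composition. Across the 39 members, the deviation of WS replicate 1 from the mean of the 6 libraries (log2 CPM) had a Pearson r of 0.60 with the GC content of the longest transcript, and that of WS replicate 3 had an r of −0.34. Across 13719 tested genes, which are not independent replicates, the same values were 0.49 and −0.33, whereas WS replicate 2 was at 0.02 and the NS libraries lay between −0.15 and −0.03. Across the members, however, r was also −0.34 in NS replicate 3, and it was 0.12, −0.19 and 0.04 in NS replicates 1 and 2 and WS replicate 2. The 13 members of lowest GC content (39.2% to 48.1%, such as Slco1a4, Ocln, Abcg2 and Lef1) were all lower in WS replicate 1 than in WS replicate 3, with a median difference of −0.26 on the log2 scale. Of the 13 of highest GC content (53.9% to 63.6%, such as Cldn5, Sox18, Foxq1 and Rasip1), 9 were higher in WS replicate 1, with a median of 0.10. The median log2 fold change, WS over NS, was 0.06 in the former and 0.19 in the latter. The GC content of Pecam1 was 50.2%, near the middle, and its difference between these libraries was −0.90.

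**Figure D3:**
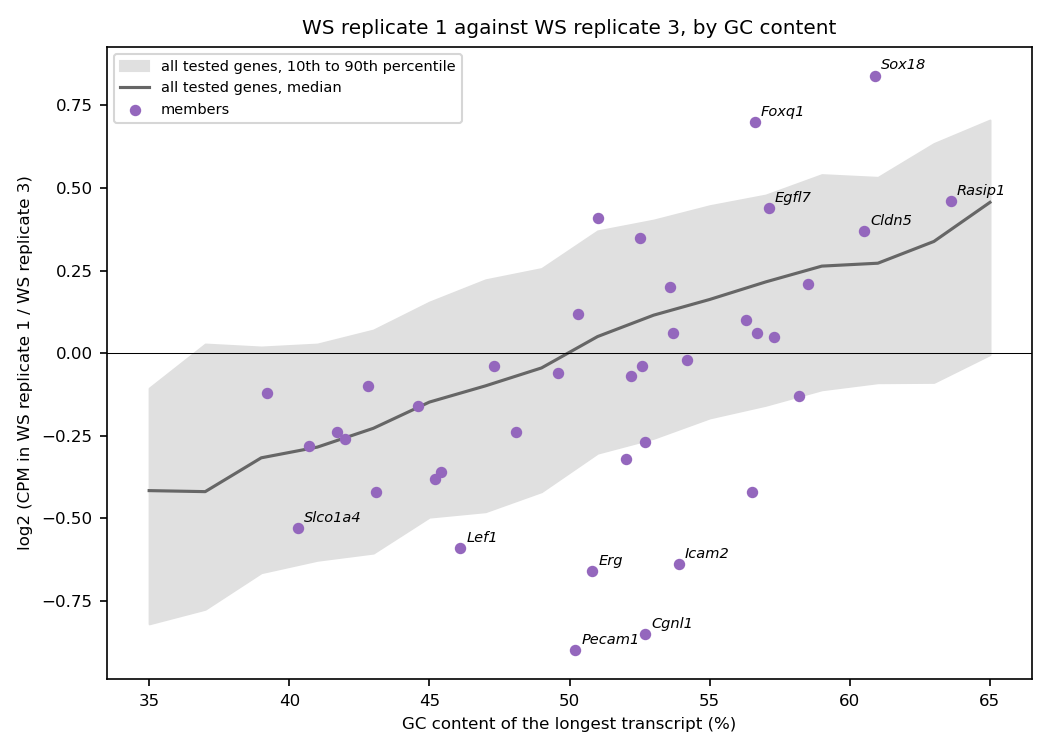
Log2 ratio of WS replicate 1 over WS replicate 3 against the GC content of the longest transcript, for the 39 members (points) and for all tested genes (line, median per GC bin; grey band, 10th to 90th percentile). The members run from negative to positive with rising GC content as the line does, and Pecam1, Cgnl1, Icam2 and Erg are among the members below the band.

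Promoter windows from RefSeq (GRCm38.p6, 250 bases before to 50 after a start) were on hand for 23 of the 39 members, with 35 windows in all. The ETS motif AGGAAG, on either strand, was in the windows of 14 of 23 members, or 60.9%, and of 38.4% of all 27025 genes with a window. The SOX motif AACAAT was in those of 5 members, or 21.7%, against 12.2% of genes, and the TCF/LEF motif CTTTGA also in those of 5, against 18.2%. Per window the shares were 51.4% against 35.4% for ETS, 14.3% against 10.7% for SOX and, in the other direction, 14.3% against 16% for TCF/LEF. No motif is contained in another or in its reverse complement, though neighbouring matches may share end letters. Members with both an ETS and a SOX match were Ctla2a, Emcn, Erg, Slco1a4 and Ushbp1. A match is a string of letters, not a measured binding site. Of the 7 members whose groups did not overlap, 3 have a window, and 200 bases of each, from 250 to 51 before the start, are shown so that these members can be compared. Capitals mark a match, of which Mfsd2a has 1, to the TCF/LEF letters, 115 bases before its start. The first line is chr4:122961239-122961438, the second is chr13:100552769-100552968 and the third is chr12:58269309-58269508, all on the minus strand.
Mfsd2a: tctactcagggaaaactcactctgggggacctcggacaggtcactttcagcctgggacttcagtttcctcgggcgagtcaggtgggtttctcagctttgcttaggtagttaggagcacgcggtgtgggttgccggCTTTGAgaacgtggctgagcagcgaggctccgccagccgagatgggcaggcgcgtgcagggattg
Ocln: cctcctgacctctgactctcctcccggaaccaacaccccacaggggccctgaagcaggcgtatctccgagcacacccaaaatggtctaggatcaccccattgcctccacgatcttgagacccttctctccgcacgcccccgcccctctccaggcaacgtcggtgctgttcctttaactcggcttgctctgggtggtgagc
Clec14a: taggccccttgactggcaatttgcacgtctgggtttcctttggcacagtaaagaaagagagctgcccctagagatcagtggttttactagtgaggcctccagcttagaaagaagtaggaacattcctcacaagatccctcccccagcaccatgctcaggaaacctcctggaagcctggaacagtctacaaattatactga
Ocln, with a GC content of 61.5%, and Mfsd2a, with 60%, were richer in GC over these bases than Clec14a, with 49%. Ocln has a second start with a window of its own, whose first 200 bases have a GC content of 68.5% and no match. The other 4 members, Pecam1, Sox17, Cd93 and Ramp2, are named only.

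Lists of other genes of the barrier and its vessels had median log2 fold changes from 0.04 to 0.18. Of 17 genes of the Wnt pathway that induces the barrier, 13 had a fold change above 0, with a median log2 value of 0.09 and no adjusted p under 0.05. The highest was Tcf7l2, a TCF factor, at 0.37 (SE 0.249), and the lowest was the ligand gene Ndp, at −0.17 (SE 0.12). Ndp gave −0.11 without NS replicate 3 and −0.22 without NS replicate 2. Tcf7l2 had 14 CPM in WS replicate 3 and between 6.34 and 8.2 CPM in the other libraries, so its value rests on that library, without which it was −0.04. The median of the Wnt list was 0.0013 when WS replicate 3 was left out. Among 12 other junction genes, 8 were above 0, with a median of 0.04, from −0.12 (SE 0.0833) for Cldn12 to 0.29 (SE 0.24) for the plaque protein Cgn, which gave 0.12 without WS replicate 3 and 0.44 without WS replicate 1. That median was −0.02 without WS replicate 3 and 0.10 without WS replicate 1. Cldn12 gave −0.07 without WS replicate 1 and −0.17 without WS replicate 2.

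Among 9 other barrier transporters, 7 were above 0, with a median of 0.07, which was 0.04 without WS replicate 3. Slc16a1, which encodes the monocarboxylate transporter MCT1 of brain endothelium and glia, was the single gene of the pathway lists past the threshold. It had 43.2, 43.4 and 44.5 CPM in NS and 110.1, 100.1 and 79.6 CPM in WS. Slc16a1 rose with stimulation in each WS library, by 1.14 on the log2 scale (SE 0.111, adjusted p = 0.00356 in edgeR).

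Among 14 further endothelial genes that were tested, 13 were above 0, with a median of 0.18, which was 0.06 without WS replicate 3. The highest was the haematopoietic and endothelial factor Tal1, at 0.80 (SE 0.36), and the lowest was the ETS factor Ets1, at −0.02 (SE 0.142), which lay between −0.16 and 0.07 with single libraries left out. Tal1 had between 20 and 74 counts in a library, and its groups overlapped. WS replicate 3 held its highest value, 4.67 CPM, and without that library its log2 fold change was 0.37. With Tal1, an unadjusted p under 0.05 was also reached by Eng, Fli1 and Foxf2, which are named after their values were seen. Over all tested genes, 0.866% were higher at this p. The groups of Eng, Fli1 and Foxf2 did not overlap, with each WS library above each NS library, as for 3.11% of all tested genes. Their log2 fold changes were 0.27 (SE 0.102) for the TGF-β co-receptor Eng and 0.38 (SE 0.175) for the ETS factor Fli1. Foxf2, a forkhead factor of mural as well as endothelial cells, gave 0.41 (SE 0.165). In edgeR these 4 genes did not reach an adjusted p of 0.05, and the unadjusted p was 0.112 for Eng and 0.123 for Fli1 without NS replicate 1 and 0.106 for Foxf2 without NS replicate 2.

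Genes of caveolae and transcytosis, which the barrier holds low, gave 4 of 5 above 0 and a log2 median of 0.05, from −0.11 (SE 0.192) for Cav2 to 0.18 (SE 0.0993) for Cavin1. Without WS replicate 1 the caveolae median was 0.14 and Cav2 stood at 0.12. Of 8 tested genes of tip cells and proliferation, 5 were above 0, with a median of 0.14, from −0.28 (SE 0.272) for the growth factor Pgf to 0.41 (SE 0.343) for the cell cycle marker Mki67. Without NS replicate 1 these values were 0.02 and 0.09 and the median 0.07, and without WS replicate 1 Mki67 gave 0.66 and the median was 0.22. Arterial genes numbered 3 of 6 above 0, with a median of 0.04, from −0.04 (SE 0.25) for Gkn3 to 0.35 (SE 0.224) for the connexin Gja4. Gja4 gave 0.17 without NS replicate 1 and 0.18 without WS replicate 1. Gkn3 gave −0.20 without WS replicate 1, and 0.08 without NS replicate 3 or without WS replicate 2. The arterial median was −0.03 without WS replicate 1 and 0.12 without WS replicate 2. Of 6 genes of veins and activated endothelium, 6 were above 0, with a median of 0.09, from 0.01 (SE 0.214) for the adhesion molecule Icam1 to 0.19 (SE 0.104) for Ackr1. Without WS replicate 1 Ackr1 gave 0.09 and Icam1 −0.14, and without WS replicate 2 Icam1 gave 0.15. The venous median was −0.01 without WS replicate 1 and 0.20 without WS replicate 3. No gene of these 4 lists had an adjusted p under 0.05.

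Markers of other cells in the cortex were measured beside the members. Of the pericyte markers, 8 of 10 had a fold change above 0, with a median log2 value of 0.11, and their summed CPM was 286.2 to 289.8 in NS and 293.0 to 339.8 in WS. For vascular smooth muscle, 5 of 5 tested markers were above 0, with a median of 0.18 and sums of 34.3 to 45.8 and 43.9 to 52.6 CPM. Perivascular fibroblast markers gave 5 of 6, a median of 0.23 and sums of 104.2 to 141.0 and 132.7 to 144.8 CPM. Of these, Col3a1 at 0.48 (SE 0.177) and Col1a2 at 0.29 (SE 0.119) reached an unadjusted p under 0.05 in edgeR. Both are named after their values were seen, and their groups did not overlap. Over all tested genes, 0.866% were higher at this p and 3.11% had each WS library above each NS library. In each of these lists, as among the members, most markers had a fold change above 0. With single libraries left out, the medians ranged from 0.07 to 0.18 for pericytes, 0.07 to 0.27 for smooth muscle and 0.09 to 0.43 for fibroblasts.

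Cells outside the vessel wall gave a mixed picture. Astrocyte markers were above 0 in 9 of 9, with a median of 0.13 and sums of 4565.1 to 4907.3 CPM in NS and 4627.2 to 5702.3 CPM in WS, the highest being WS replicate 3. Oligodendrocyte markers were above 0 in 6 of 6, with a median of 0.19 and sums of 7949.4 to 11470.0 and 9436.0 to 12703.8 CPM. For microglia the count was 5 of 6, the median 0.09, and the sums 361.4 to 375.0 and 376.3 to 389.4 CPM. Neuronal markers were above 0 in 4 of 8, with a median of 0.01 and sums of 8029.9 to 8307.2 and 7740.0 to 8269.0 CPM. Red blood cell genes, Hbb-b1 among them, were above 0 in 6 of 6 tested, with a median of 0.05 and sums of 484.5 to 767.0 and 603.3 to 639.1 CPM. Choroid plexus markers were above 0 in 3 of 6 tested, with a median of −0.06 and sums of 37.1 to 85.4 CPM in NS and 11.3 to 105.0 CPM in WS. The choroid plexus median was −0.85 without WS replicate 2 and 0.43 without WS replicate 1. With single libraries left out, the medians ranged from 0.07 to 0.17 for astrocytes, 0.05 to 0.30 for oligodendrocytes, 0.03 to 0.10 for microglia, −0.03 to 0.08 for neurons and −0.05 to 0.32 for red blood cells. No marker in these lists had an adjusted p under 0.05, and the summed level of every list was above 0 CPM in each library. Cnn1 and Slc4a1 were the markers with under 10 counts on average. Hbb-b2 and Ttr, also in these lists, were not found by name among the 14824 genes, so the sums leave them out. The part of these cells in the members' values was not tested.

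**Figure D4:**
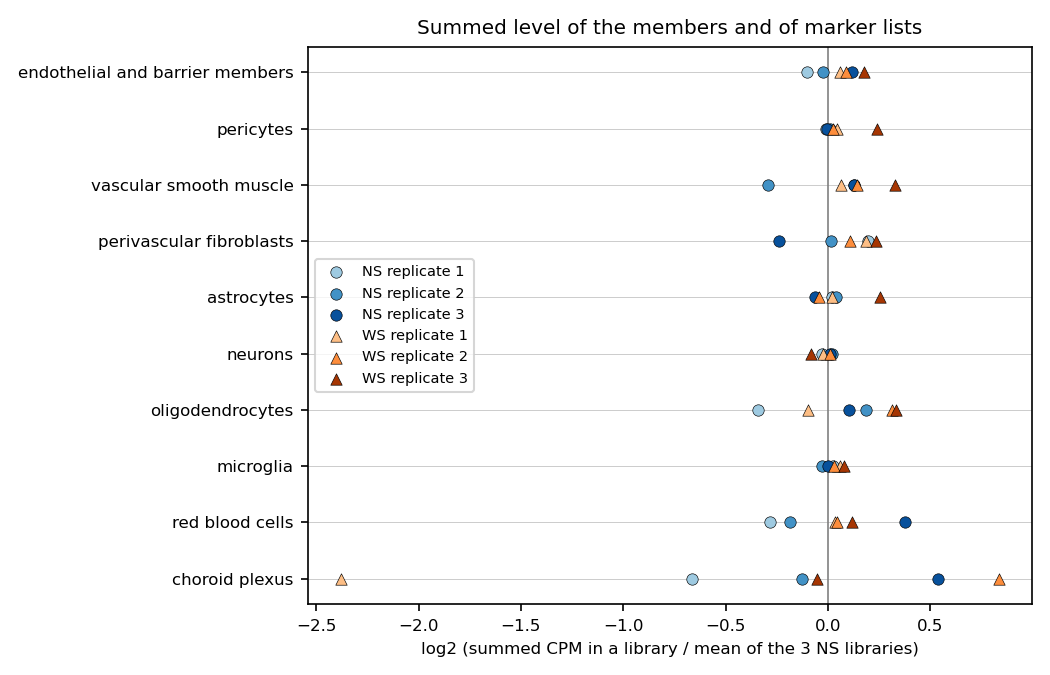
Summed CPM of the 39 members and of the marker lists of other cell types in each library (circles, NS; triangles, WS), as log2 of the value over the mean of the 3 NS libraries. WS replicate 3 is the highest library for the members and for the pericyte, smooth muscle, fibroblast, astrocyte, oligodendrocyte and microglia lists, and the lowest for neurons.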

How the data were processed

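Bulk RNA-seq was performed by the authors on 3 NS and 3 WS samples of S1 cortex on the DNBseq platform. RNA was accepted at an RNA integrity number above 2, and values for single samples are not given in the sources used here. Reads from rRNA and reads of poor quality were discarded by the authors, who then used HISAT2 for alignment, FPKM for normalisation, and DESeq2 and PossionDis for testing. The build is mm10 per the labels, and the counter and its handling of strand are not given in the sources used here. The authors deposited for each gene an expected count averaged over the 6 libraries and not scaled for depth, the SD of that count, and 1 z-score per library. Columns of the authors' own comparison (fold changes, p-values and FDR) and a second table that holds only such columns were not used.

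The count of each library was recovered as mean plus z-score times SD and rounded. Where rounding in the table left under 0.1 count of uncertainty (13418 of 14824 genes), 91% of values fell within 0.1 of a whole number, against 20% for values spread evenly. The plan had assumed counts or FPKM. The column of WS replicate 3 carries an added letter in its name and was assigned through the authors' WS mean score, which includes it. Library totals (15660395 to 17276168) were taken as the depth. In chi-square tests over genes each pair of libraries within a group differed by more than sampling noise. The values were 6.2 to 6.77 per degree of freedom between NS libraries and 9 to 21.5 between WS libraries. The highest was that of WS replicates 1 and 3, so the WS libraries differed more among themselves. The fit used edgeR 4.0.16 (TMM, filterByExpr, quasi-likelihood F test, Benjamini-Hochberg over 13747 genes, dispersion 10.1% as biological coefficient of variation) in R 4.3.3. It was tested on simulated counts that had no GC trend, no pairing and larger log2 changes than any member. That test therefore does not bear on differences as small as those of the members. DESeq2 1.42.0, Python 3.11.15, SciPy 1.17.1 and matplotlib 3.10.9 were also used. Positions, merged exon lengths and the GC content of the longest transcript came from GENCODE M21 on GRCm38, the same assembly as mm10, with a match for 99.8% of genes. Promoter windows came from RefSeq.

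The replicate numbers come from the labels, which do not say that a number marks a shared animal. Deviations from the group means correlated across 13688 genes with r of 0.34, 0.23 and 0.12 for replicates 1, 2 and 3, so by a threshold of 0.1 the numbers were taken as pairs, the third narrowly. The libraries numbered 2 also shared the high Hbb-b1 level described above. The planned fit has no block, so SEs and intervals leave out this pairing unless the block is named. The fit with a replicate block is given where it changes a call.

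All members were named, with genes of the pathway lists that had an adjusted p under 0.05 and the highest and lowest of each list, of which 1 is not reported here. The members and lists were chosen with earlier results of these data known. Alternatives were other scalings, no filter, DESeq2, the replicate block, omission of single libraries, unrounded counts, other thresholds and, added after the data were seen, a GC-content offset and the omission of both libraries numbered 2. Sequence reads, imaging and protein data were not analysed here.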

Additional observations from a re-analysis of the deposited data

How the results depend on the processing

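Under other scalings (RLE, upper quartile, library size only), no filter on low counts, unrounded counts and DESeq2, all 39 members kept the sign of their fold change. The number of members past an adjusted p of 0.05 and a log2 fold change beyond 1 was 0 in every setting except without WS replicate 1, so that leaving out libraries gave 0 to 1, and at an unadjusted p under 0.05 with no fold threshold it was 1, or 1 to 6 with a library left out, 4 with the replicate block, 4 with the GC offset and 5 with both. The number with an adjusted p under 0.05 was 1 with DESeq2, 1 with the replicate block, 1 with the GC offset and block together, and 0 to 1 with a library left out. That member was Pecam1 each time, and the block changed no other call. Its log2 fold change ranged from 0.65 without WS replicate 3 to 1.08 without WS replicate 1, and its adjusted p in edgeR and DESeq2 from 9.5e-04 to 1.0000. The median of the members ranged from 0.09 to 0.14 with a library left out. The GC offset turned Egfl7 and Nos3 to −0.03 each, with and without the block. Leaving out single libraries changed the sign of 15 members, with log2 ranges of −0.07 to 0.12 for Podxl, −0.12 to 0.11 for Egfl7, −0.06 to 0.18 for Emcn, −0.01 to 0.26 for Ly6c1, −0.06 to 0.21 for Slco1a4, −0.03 to 0.17 for Slco1c1, −0.03 to 0.17 for Abcb1a, −0.11 to 0.01 for Abcg2, −0.12 to 0.26 for Cgnl1, −0.16 to 0.03 for Cd34, −0.04 to 0.12 for Nos3, −0.14 to 0.15 for Slc38a5, −0.03 to 0.16 for Lsr, −0.37 to 0.0006 for Ctla2a and −0.02 to 0.20 for Mmrn2. The other 24 kept their sign, though Foxq1, Sox7, Itm2a and Slc22a8 came down to 0.01, Cdh5 to 0.02, Sox18 and Erg to 0.03, and Ly6a and Slc7a5 to 0.04. Without both libraries numbered 2, the log2 fold change was −0.0036 for Egfl7, −0.07 for Emcn, −0.06 for Cgnl1, −0.04 for Nos3 and −0.05 for Mmrn2, and the other 34 kept their sign. The cause was not tested. The members' median SE was 0.13, larger than their median log2 fold change of 0.10, so a change of that size in a single member was not detectable with 3 libraries a group, and members of low counts, such as Icam2, carry the most counting error.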
